A study of Sus scrofa with 6 samples.

Results

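CTNNB1 (beta-catenin), TCF7L1 and FZD2 were measured by 7 probe sets on the Affymetrix Porcine Genome Array. A probe set is a group of short array probes designed against the same transcript. Every probe set whose only gene symbol in the platform annotation was CTNNB1, TCF7L1 or FZD2 was taken. CTNNB1 had 5 probe sets, TCF7L1 had 1 and FZD2 had 1, out of 10069 probe sets with a single symbol for 6765 genes. The 3 genes were chosen by measured values, namely by their differences between IPEC-1 and IPEC-J2 on these arrays and by the disagreement of the CTNNB1 probe sets, so their differences are a description and carry no p-value.

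IPEC-1 and IPEC-J2 are spontaneously immortalised epithelial lines derived from piglet small intestine. Neither line was treated, and the study compared their gene expression on 6 arrays, 3 per line, each loaded with labelled RNA from 500 ng of total RNA. Both lines were grown in the same medium, with fetal calf serum and epidermal growth factor, and polarised on uncoated membrane inserts. The sample labels give 7 days on the inserts and the methods a longer time, and the labels give both lines the same cell bank number where the methods give different ones. Each line is a single line, so the 3 arrays stand for cultures of that line and not for animals, and any p-value below covers only how much such cultures vary. Differences below are IPEC-J2 minus IPEC-1 in log2 signal, where a difference of 1 means a doubling. The lowest possible value is a floor of 4, at which signals have no order.

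Between 40.5 and 48.3% of the probe sets lay at the floor per array, with the highest share in IPEC-J2 replicate 1. Arrays of the same line correlated with r between 0.971 and 0.988, arrays of different lines with r between 0.886 and 0.911. Each cell type marker was read from its brightest probe set. The epithelial markers EPCAM, which lay between 13.34 and 13.60, and CDH1 (E-cadherin), which lay between 12.47 and 12.73, were high on every array. Of 11 epithelial markers on the array, 8 were above the floor on every array and none was at the floor on all of them. Their summed log2 level ran from 111.07 to 117.05 in IPEC-1 and from 123.36 to 125.2 in IPEC-J2, and 3 of these markers were called higher and 2 lower in IPEC-J2. VIL1 (villin) was higher, with means of 6.99 and 13.89, where the mean of IPEC-1 includes 1 array at the floor. The other higher ones were CLDN3 (claudin-3), which was on the floor throughout IPEC-1 and had a mean of 8.28 in IPEC-J2, and CLDN7 (claudin-7), with 10.44 and 11.53. KRT19 (keratin 19) was lower, with 13.08 and 12.28, and so was OCLN (occludin), with 11.64 and 10.77. Of 6 fibroblast markers, COL3A1, DCN and LUM were at the floor on all arrays. COL1A2 lay between 7.70 and 7.96, and PDGFRB had means of 7.09 in IPEC-1 and 5.41 in IPEC-J2, with 1 array at the floor. VIM (vimentin) had means of 12.86 and 11.48, and no fibroblast marker was called. The summed level of the list ran from 39.34 to 40.25 in IPEC-1 and from 35.33 to 37.73 in IPEC-J2. Of 5 endothelial markers 4 were at the floor on all arrays, all but PECAM1, which was lower in IPEC-J2, and the list summed to 23.3 to 23.76 in IPEC-1 and 20.0 to 21.73 in IPEC-J2. Of 3 blood markers PTPRC (CD45) was at the floor on all arrays, CD3E had a mean of 5.93 in IPEC-1 and was lower, at the floor, in IPEC-J2, CD14 had 4.00 and 4.49 and was not called, and the sums were 13.6 to 14.13 and 12.0 to 13.47. The part of these marker lists in the differences of the Wnt genes was not tested. In RNA from whole cultures, fewer cells of a type and less RNA per cell cannot be told apart.

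Wnt ligands bind Frizzled receptors such as FZD2 together with the co-receptors LRP5 and LRP6. Without a ligand, a destruction complex around AXIN, APC and the kinases CK1 and GSK3 marks beta-catenin for degradation. With a ligand, beta-catenin accumulates and enters the nucleus, where it binds TCF/LEF factors, and TCF7L1 is the member of that family best known as a repressor. In the intestine this pathway maintains the stem cells and progenitors of the crypt. Beta-catenin also has a structural role, as it links E-cadherin to alpha-catenin and the actin cytoskeleton at the adherens junction.

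The CTNNB1 probe sets went in both directions. They are called a to e here, in the order of the plot of the 7 probe sets from left to right, which gives their identifiers. All 5 are annotated to the same RefSeq transcript, and the levels of different probe sets cannot be set against each other, since each has its own probes. Probe set a read 12.21, 12.18 and 11.68 on the arrays of IPEC-1, against 9.61, 9.71 and 9.89 for IPEC-J2. The lines did not overlap, with means of 12.02 ± 0.30 and 9.74 ± 0.14 (SD, n = 3 per line), a difference of -2.29, which is 4.88-fold lower in IPEC-J2. Probe set b read 10.62, 11.67 and 10.79 on the arrays of IPEC-1, against 8.87, 8.90 and 8.60 for IPEC-J2. Here too every IPEC-J2 array lay below every IPEC-1 array, with means of 11.03 ± 0.56 and 8.79 ± 0.17 (SD, n = 3) and a difference of -2.24, or 4.71-fold. IPEC-1 replicate 2 was the high array of this probe set and set most of its SD.

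The remaining 3 CTNNB1 probe sets differed little. Probe set e, the brightest, read 12.92, 13.04 and 13.06 on the arrays of IPEC-1, against 13.34, 13.27 and 13.38 for IPEC-J2. All IPEC-J2 arrays lay above all IPEC-1 arrays, with means of 13.01 ± 0.08 and 13.33 ± 0.06 (SD, n = 3) and a difference of 0.32, or 1.25-fold. Probe set d read 12.60, 12.53 and 12.49 on the arrays of IPEC-1, against 12.84, 12.72 and 12.87 for IPEC-J2. IPEC-J2 was again above IPEC-1 on every array, at 12.81 ± 0.08 against 12.54 ± 0.06 (SD, n = 3), a difference of 0.27 or 1.21-fold. Probe set c read 8.00, 7.56 and 7.64 on the arrays of IPEC-1, against 7.08, 7.56 and 7.38 for IPEC-J2. These values overlapped, with means of 7.73 ± 0.23 and 7.34 ± 0.24 (SD, n = 3) and a difference of -0.39, which was larger than the SD of either line. Probe sets b, d and e share the stem of their identifiers, and b was lower while d and e were slightly higher in IPEC-J2.

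The study's methods average the probe sets of a gene. Over the 5 CTNNB1 probe sets, that mean came to 11.27 ± 0.13 for IPEC-1, against 10.40 ± 0.05 for IPEC-J2 (SD, n = 3), a difference of -0.86 or 1.82-fold lower. No single probe set had this difference. The brightest probe set gave 0.32 in place of -0.86, the median over the probe sets on each array, which was always probe set a, gave -2.29, and the median of the 5 differences was -0.39, that of probe set c. Thus the direction of CTNNB1 as 1 value depended on how its probe sets were combined.

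**Figure D1:**
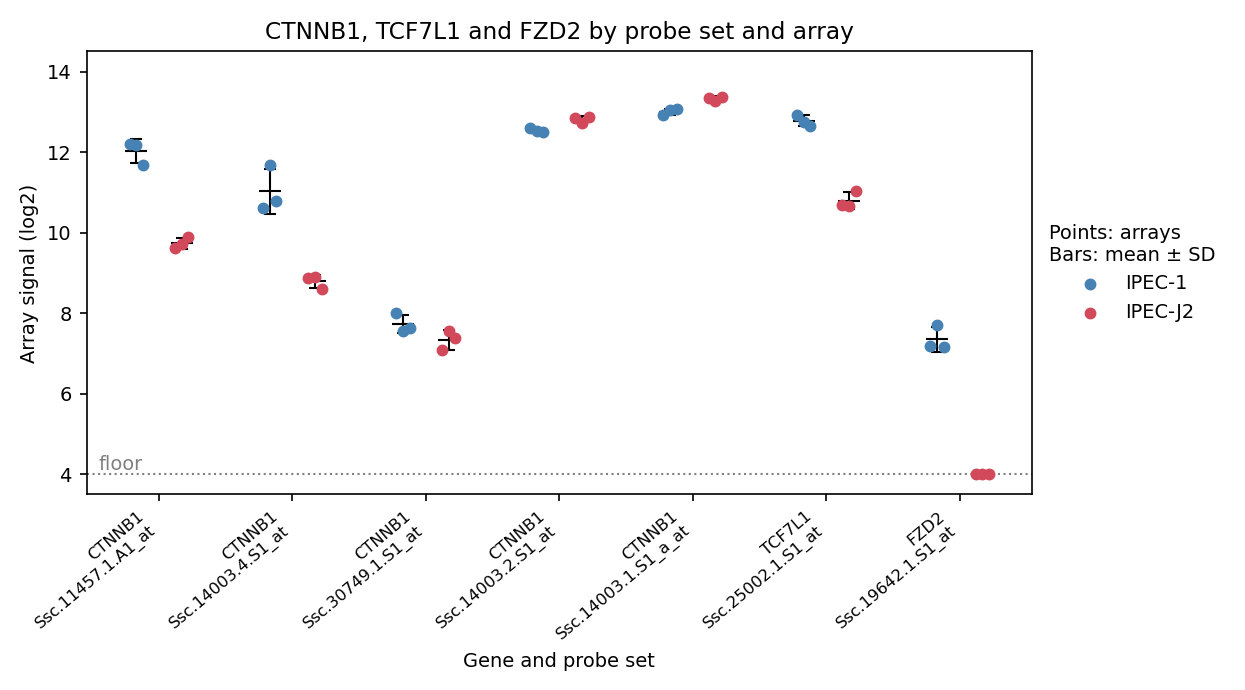
Log2 array signal (vertical axis) of the 5 CTNNB1 probe sets and of the TCF7L1 and FZD2 probe sets (horizontal axis), with 1 point per array, IPEC-1 in blue and IPEC-J2 in red. Black bars are the mean ± SD of 3 arrays, drawn where no array of a line is at the floor. From left to right the CTNNB1 probe sets are a to e. The lines are far apart for CTNNB1 in a and b, for TCF7L1 and for FZD2, which is at the floor of 4 in IPEC-J2, and they are within 0.39 of each other in the other CTNNB1 probe sets.

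The CTNNB1 probe sets lay farther apart than those of most genes. From the lowest to the highest difference it spanned 2.61. Among 205 genes with at least 3 probe sets above the floor on all arrays, the median span was 0.29, the 95th percentile was 1.31, and EF1ALPHA (an elongation factor gene) alone was wider, with 3.75. Among 974 genes with at least 2 such probe sets, the median span was 0.17, and 3 genes, EF1ALPHA, SLC3A1 (3.09) and SMIM22 (3.00), were wider than CTNNB1. As a gene was chosen here for this disagreement, its place in the distribution is a description.

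**Figure D2:**
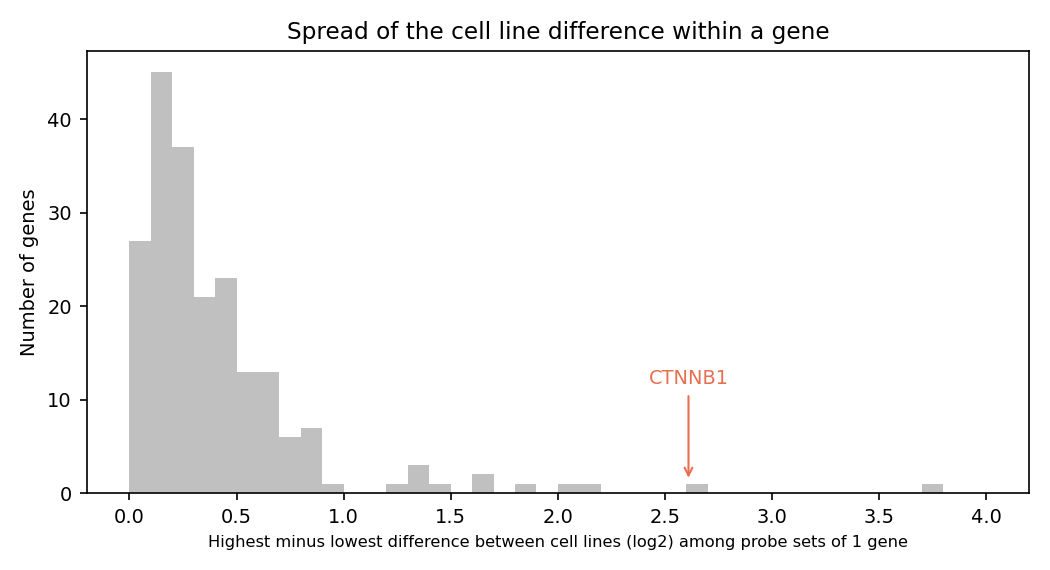
Number of genes (vertical axis) by the span between the highest and the lowest IPEC-J2 minus IPEC-1 difference among the probe sets of a gene, in log2 (horizontal axis), for the 205 genes with at least 3 probe sets above the floor on all arrays. Most genes lie below 1, and the arrow marks CTNNB1 at 2.61, with 1 gene beyond it.

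TCF7L1 was lower in IPEC-J2. Its probe set gave signals of 12.92, 12.76 and 12.66 in IPEC-1, against 10.69, 10.66 and 11.03 in IPEC-J2. The lines did not overlap, with means of 12.78 ± 0.13 and 10.79 ± 0.21 (SD, n = 3), a difference of -1.99 or 3.96-fold. Of the other TCF/LEF factors, TCF7L2, the TCF factor most often studied in the intestinal epithelium, was measured by a pair of probe sets. With the brighter probe set, TCF7L2 had a mean of 9.01 ± 0.26 for IPEC-1 against 9.00 ± 0.09 for IPEC-J2 (SD, n = 3). Its difference of -0.01 had a 95% interval of -0.42 to 0.41 and did not pass limma's test (adjusted p = 0.988). The dimmer probe set gave 6.53, 7.20 and 6.80 for IPEC-1, against 7.08, 4.00 and 4.00 for IPEC-J2, so IPEC-J2 replicate 1 stood within the range of IPEC-1 and the other IPEC-J2 arrays were at the floor. LEF1 was above the floor only on IPEC-1 replicate 1, with 5.25. Whether the difference of TCF7L1 was unlike that of TCF7L2 was not tested.

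FZD2 was above the floor on every IPEC-1 array and at the floor on every IPEC-J2 array. Its probe set gave 7.19, 7.70 and 7.16 in IPEC-1, a mean of 7.35 ± 0.30 (SD, n = 3), against 4.00 on all 3 arrays of IPEC-J2. The difference of -3.35 to the floor is not a size, because the floor is not a measured level. Set against a dim level of 4.66, the 95th percentile of an IPEC-J2 array over the probe sets that were at the floor on the other IPEC-J2 arrays, FZD2 was at least 6.46-fold lower. When that percentile was taken only over the signals above the floor, a choice made after the values were seen, the dim level was 7.71, which is above the mean of FZD2 in IPEC-1 and gives no bound.

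Of the other Frizzled receptors, FZD4, FZD5 and FZD6 were on the array. FZD4, known as the receptor of norrin and of several Wnt ligands, went the opposite way to FZD2. With its brighter probe set, FZD4 gave 8.95, 8.56 and 8.71 in IPEC-1, against 9.89, 9.91 and 10.00 in IPEC-J2. It was 2.29-fold higher in IPEC-J2, with a difference of 1.19 (SE 0.140, limma adjusted p = 0.00480), and no IPEC-J2 array overlapped with IPEC-1. With its dimmer probe set, FZD4 gave a difference of 0.72, also without overlap, which missed the threshold (limma adjusted p = 0.0541). FZD5 gave a difference of 0.08 with a 95% interval of -0.42 to 0.57 (limma adjusted p = 0.806). The FZD6 probe sets both gave -0.08, with 95% intervals of -0.41 to 0.25 and of -0.52 to 0.36. LRP6, the co-receptor, gave -0.61 and -0.70 and did not pass (limma adjusted p = 0.255 and 0.148), and its lines overlapped in both probe sets.

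**Figure D3:**
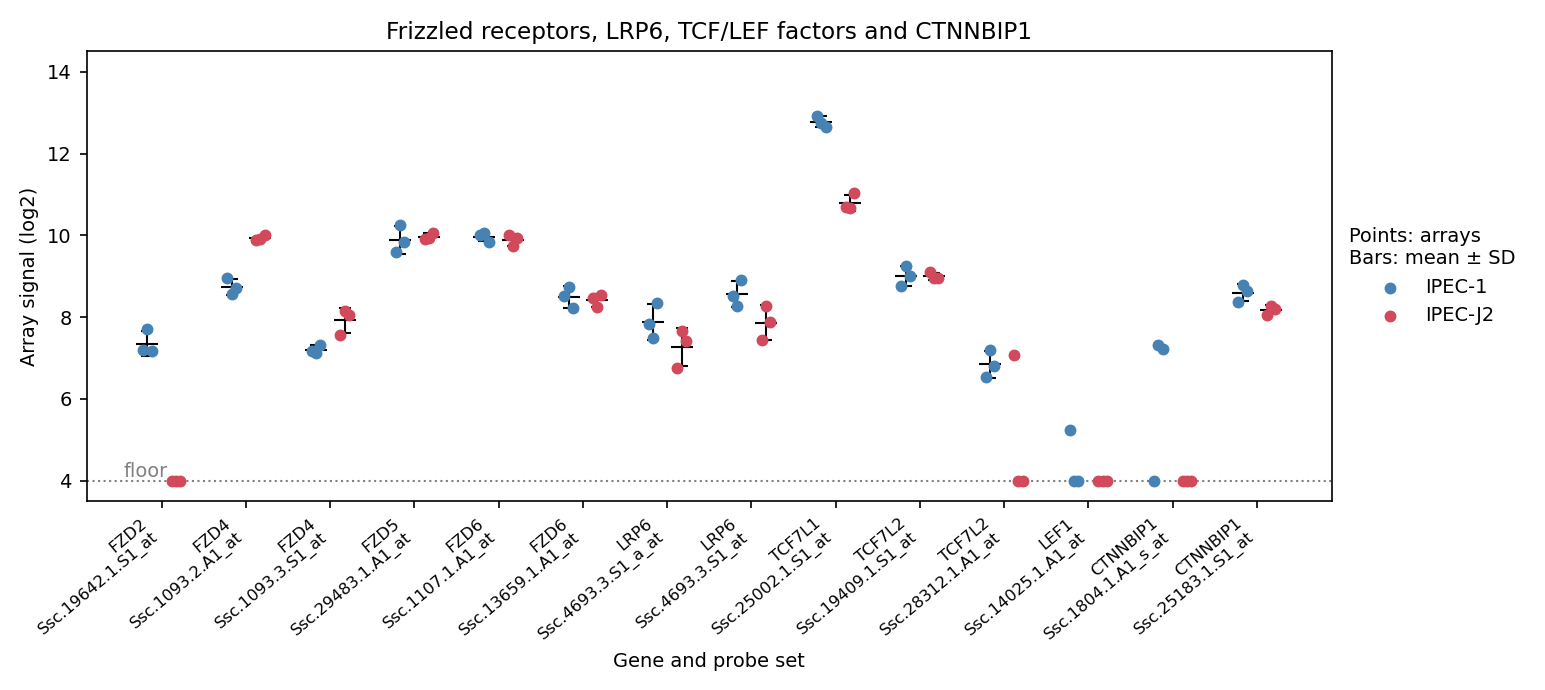
Log2 array signal (vertical axis) of the Frizzled receptors, LRP6, the TCF/LEF factors and CTNNBIP1, by gene and probe set (horizontal axis), with 1 point per array, IPEC-1 in blue and IPEC-J2 in red, and the mean ± SD of 3 arrays as black bars where no array of a line is at the floor. FZD2 and TCF7L1 are lower and FZD4 is higher in IPEC-J2, while FZD5, FZD6 and the brighter TCF7L2 probe set have means within 0.08 of each other in both lines.

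Over all genes, limma called 19.0% of 16322 fitted probe sets different between the lines at an adjusted p under 0.05, 8.79% of them higher and 10.2% lower in IPEC-J2, and the lines did not overlap in 41.3%. Of the 7 probe sets of CTNNB1, TCF7L1 and FZD2, 4 were called, all lower in IPEC-J2, and 6 did not overlap. Since these genes were selected on the same arrays, nothing is read from that share.

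Culture notes in the labels pair some arrays. Note A is common to IPEC-1 replicate 1 with IPEC-J2 replicate 3, and note B to IPEC-1 replicate 2 with IPEC-J2 replicate 1, and the labels do not say what the notes stand for. Within note A and note B, the differences were -2.32 and -2.57 for CTNNB1 probe set a, and -2.02 and -2.80 for b. They were -0.62 and -0.48 for c, 0.27 and 0.31 for d and 0.46 and 0.30 for e. For TCF7L1 they were -1.89 and -2.07, and for FZD2 -3.19 and -3.70 to the floor. Every one of these probe sets kept its direction within both notes. For the 6 probe sets without overlap between the lines, any pair of arrays gives the same direction. Only probe set c could have changed, so nothing further is read from this.

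The other genes of the pathway were read from 7 lists, ordered from the ligand to the targets, without CTNNB1, TCF7L1 and FZD2. They held 197 genes, of which 69 had a single-symbol probe set on the array. Of their 115 probe sets, 22 never left the floor. Of the 93 fitted, 4 were higher (4.30%) and 13 were lower (14.0%, 12 genes) in IPEC-J2, beside 8.79 and 10.2% over all probe sets. This split of 4 and 13 was 8 and 14 after quantile normalization and 8 and 10 with the arrays centred on their 75th percentile. The share of lower calls rested on having all 6 arrays. Leaving out an array gave 3 to 7 lower probe sets, 3.23 to 7.69% of those fitted, and in each of these fits that share was below the share over all probe sets, as with 3.26 against 6.01% without IPEC-1 replicate 3, 3.23 against 6.52% without IPEC-1 replicate 2 and 3.23 against 5.40% without IPEC-J2 replicate 3. The fit with the culture notes as pairs also put IPEC-1 replicate 3 with IPEC-J2 replicate 2, which share no note. In it, 5 listed probe sets were lower (5.38%), beside 4.75% over all probe sets. In the deposited signals the median difference of the listed probe sets, -0.07, was equal to that of all fitted probe sets.

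Among ligands and modulators few genes could be read. WNT10B was at the floor on every array, and WLS, the carrier that Wnt ligands need for secretion, gave 0.36 (limma adjusted p = 0.404). Of the 7 receptor probe sets FZD4 alone passed the test (14.3%, beside 8.79% higher over all probe sets). Of the 5 probe sets of secreted and surface modulators 1 was higher (20.0%), beside the same 8.79%. This was DKK3, a member of the Dickkopf family, 1.61-fold higher in IPEC-J2 and close to the threshold (limma adjusted p = 0.0491). The DKK3 call was lost with the culture notes as pairs (limma adjusted p = 0.0743) and in 5 of 6 fits that left out an array, with an adjusted p of up to 0.148 without IPEC-J2 replicate 3.

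In the destruction complex list, 1 of 29 probe sets was higher (3.45%) and 5 were lower (17.2%), beside 8.79 and 10.2% over all probe sets. The median difference of this list was 0.17. CSNK1A1, the alpha form of casein kinase 1 and the first kinase to phosphorylate beta-catenin, rose with the probe set that passed from 10.35, 10.61 and 10.14 in IPEC-1 to 11.66, 11.61 and 11.55 in IPEC-J2. This was a 2.36-fold difference (limma adjusted p = 0.00577). The other CSNK1A1 probe sets gave 0.41 (limma adjusted p = 0.110) and 1.29 with an IPEC-1 array at the floor (limma adjusted p = 0.389). PPP2R5C and PPP2R5E encode regulatory subunits of protein phosphatase 2A, which steer the phosphatase to its substrates. PPP2R5E gave 9.42, 9.46 and 9.34 in IPEC-1, against 8.19, 8.41 and 8.55 in IPEC-J2, 2.03-fold lower (limma adjusted p = 0.00713). PPP2R5C gave -0.86 and -0.62 in 2 of its 3 probe sets (limma adjusted p = 0.0236 and 0.0325), and the remaining one gave -0.68 and did not pass (limma adjusted p = 0.0987). PPP2R5A, a subunit of the same kind, gave 0.19 (limma adjusted p = 0.612). PPP2R1B, a scaffold subunit of that phosphatase, gave 0.59 and 0.55 without overlap between the lines and did not pass (limma adjusted p = 0.0581 and 0.0542). PPP2R1A, another scaffold subunit, gave 9.25, 9.18 and 9.24 in IPEC-1, against 4.00, 8.37 and 7.94 in IPEC-J2. This difference of -2.45, also without overlap, did not pass either (limma adjusted p = 0.212). CSNK2B, the regulatory subunit of casein kinase 2, was 1.57-fold lower and SENP2, a SUMO protease, 1.43-fold lower in 1 of 3 probe sets (limma adjusted p = 0.0233 and 0.0365). With the culture notes as pairs, PPP2R5C, CSNK2B and SENP2 no longer passed (limma adjusted p of 0.0567 and 0.0927, 0.0783, and 0.0890). In the 6 fits that left out an array, the calls were lost in 6 for SENP2, in 5 for CSNK2B, and in 4 and 6 for the PPP2R5C probe sets, with limma adjusted p-values of up to 0.0750 for PPP2R5C without IPEC-1 replicate 3, and of up to 0.111 for its other probe set, 0.0758 for CSNK2B and 0.123 for SENP2 without IPEC-J2 replicate 3.

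Of the 17 probe sets of nuclear partners 1 was lower (5.88%) and none was higher, beside 10.2 and 8.79% over all probe sets. PYGO2, a co-activator that is tethered to beta-catenin through BCL9, gave 8.15, 8.56 and 8.29 in IPEC-1, against 7.38, 7.69 and 7.55 in IPEC-J2. It was 1.73-fold lower (limma adjusted p = 0.0257), which was lost with the notes as pairs (0.0860) and in 5 of 6 fits without an array, with up to 0.0868 without IPEC-J2 replicate 3. CTNNBIP1, an inhibitor that keeps beta-catenin off TCF factors, gave -0.42 and did not pass (limma adjusted p = 0.120). Its other probe set gave 4.00, 7.33 and 7.23 in IPEC-1, against the floor on all IPEC-J2 arrays, a difference of -2.19 that did not pass either (limma adjusted p = 0.173). HDAC1, a co-repressor enzyme, gave 0.63 (limma adjusted p = 0.0546), and CTBP2, another co-repressor, gave -0.50 and -0.52 (limma adjusted p = 0.0872 and 0.104).

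Of the 12 fitted probe sets of Wnt target genes, 1 was higher (8.33%) and 3 were lower (25.0%), beside 8.79 and 10.2% over all probe sets. MMP7 (matrilysin), an epithelial protease, had the highest rise among the listed genes that passed. Its signals were 10.51, 11.26 and 12.20 in IPEC-1, against 14.00, 13.85 and 13.90 in IPEC-J2, a 6.03-fold difference (limma adjusted p = 0.0146), with a wide spread in IPEC-1. BMP4, a ligand of the BMP pathway, gave 10.10, 10.47 and 10.68 in IPEC-1, against 8.77, 7.92 and 8.05 in IPEC-J2, 4.50-fold lower (limma adjusted p = 0.00712). JUN, a subunit of the AP-1 factor, was 2.36-fold lower and EDN1, the precursor of endothelin-1, was 2.27-fold lower (limma adjusted p = 0.0318 and 0.0294). Without IPEC-J2 replicate 3, the limma adjusted p was 0.0568 for MMP7, 0.105 for JUN and 0.0863 for EDN1, and calls were lost in 2 of 6 fits without an array for MMP7 and in 5 of 6 for JUN and EDN1. MYC gave 0.33 (limma adjusted p = 0.608) and CCND2 (cyclin D2) gave 0.58 (limma adjusted p = 0.330), neither of which passed. ASCL2 and SOX9, known from the crypt, were at the floor on every array, as was ID2. All of these genes also answer to pathways other than Wnt.

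In the list of the planar polarity and calcium branch, 4 of 23 probe sets were lower (17.4%) and none was higher, beside 10.2 and 8.79% over all probe sets. The list was drawn up to hold catalytic chains of protein kinase A as well, so their calls are not read as a change of this branch. PRKACB, which encodes a catalytic chain of protein kinase A, gave 7.58, 7.74 and 7.66 in IPEC-1, against 5.75, 6.31 and 6.19 in IPEC-J2, 2.98-fold lower (limma adjusted p = 0.00431). PRKACA, which encodes another such chain, was 1.39-fold lower, PPP3CC, a catalytic subunit of calcineurin, 1.61-fold lower, and CAMK2D, a calcium-dependent kinase, 1.51-fold lower. Their limma adjusted p-values of 0.0373, 0.0366 and 0.0442 rose to 0.0985, 0.0601 and 0.105 with the notes as pairs. Without an array, PPP3CC was lost in 5 of 6 fits and the other two in 6 of 6, with limma adjusted p-values of up to 0.105 for PRKACA and 0.117 for PPP3CC without IPEC-J2 replicate 3, and of 0.117 for CAMK2D without IPEC-J2 replicate 2.

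In the list of adherens junction partners of beta-catenin, 1 of 12 fitted probe sets was lower (8.33%) and none was higher. Over all probe sets these shares were 10.2 and 8.79%. The brighter CDH1 probe set gave 12.69, 12.47 and 12.73 in IPEC-1, against 12.64, 12.60 and 12.70 in IPEC-J2. This difference of 0.02 had a 95% interval of -0.29 to 0.32 (limma adjusted p = 0.946). The dimmer CDH1 probe set had an array of each line at the floor. It gave -0.23, with a 95% interval of -3.29 to 2.84 (limma adjusted p = 0.921). JUP (plakoglobin), the closest relative of beta-catenin, gave -0.01 with a 95% interval of -0.27 to 0.25 (limma adjusted p = 0.964). The probe set that passed measured VCL (vinculin), which binds alpha-catenin and actin. With its brighter probe set, VCL gave 12.76, 13.12 and 12.78 in IPEC-1, against 11.57, 11.76 and 11.64 in IPEC-J2, 2.35-fold lower (limma adjusted p = 0.00506). Its other probe set gave -2.24 with IPEC-J2 arrays at the floor and did not pass (limma adjusted p = 0.0969). CTNND1 (p120-catenin), which stabilises E-cadherin, gave 4.00, 4.00 and 6.64 in IPEC-1, against 7.28, 7.71 and 7.29 in IPEC-J2, and did not pass (limma adjusted p = 0.0775).

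**Figure D4:**
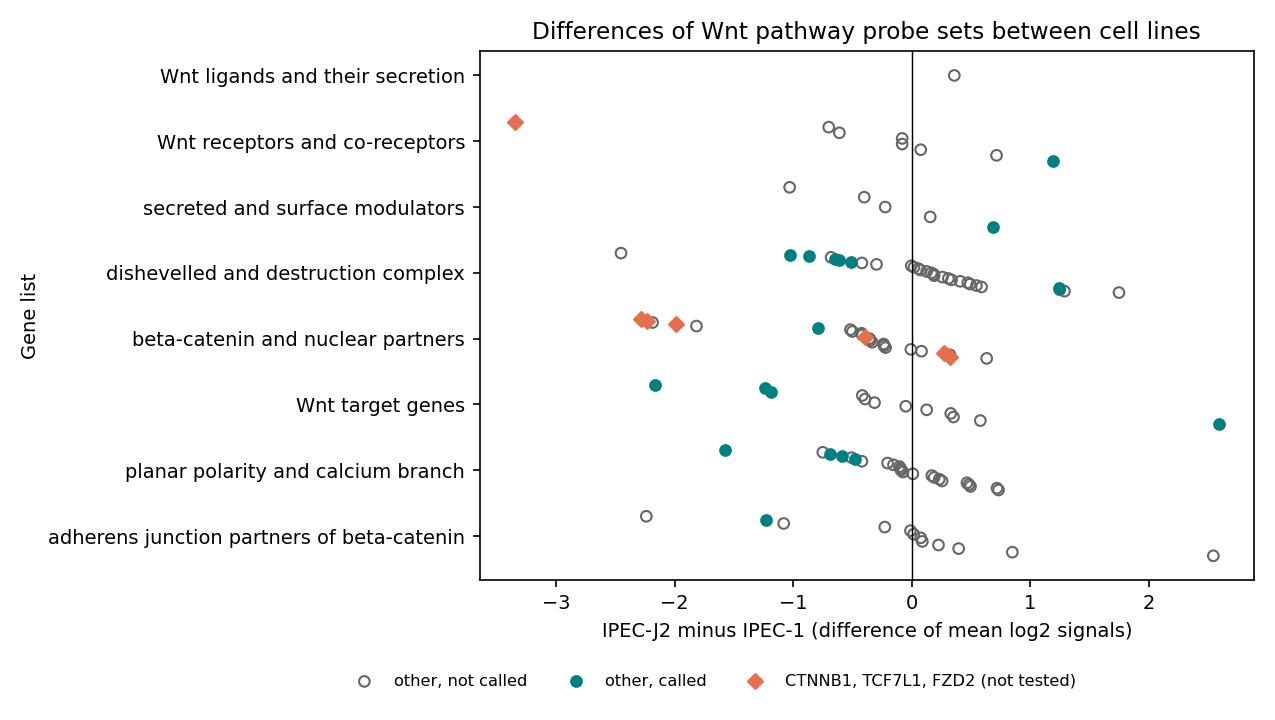
Difference of mean log2 signals, IPEC-J2 minus IPEC-1 (horizontal axis), of each fitted probe set in the 7 Wnt lists and the adherens junction list (vertical axis), with filled circles for probe sets called by limma, open circles for those not called, and diamonds for CTNNB1, TCF7L1 and FZD2. The legend marks the diamonds as not tested because no p-value is given for these genes, though the same fit included them. Of the circles, the called probe sets reach from -2.17 (BMP4) to 2.59 (MMP7), and the CTNNB1 diamonds lie on both sides of 0.

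The genes most like each member over the 6 arrays were ranked by Pearson's r among 5572 named probe sets above the floor on every array. The points fall into both cell lines, so r is a description that mixes the difference between lines with the variation inside each. For CTNNB1, the brightest probe set was most like ERGIC2 (0.989), followed by RAD50, CETN3, NQO1 and C9H11orf54 (0.984), and the list was a different one for probe set a, which was chosen after its values were seen. Probe set a was most like ZZZ3 (0.999), LRIG1, RPS18, PDCD5 and PALMD. TCF7L1 was most like ATP5F1 (0.999), METAP2, OXA1L, LRIG1 and PRMT7 (0.997), and FZD2 was most like FIP1L1 (0.999), PLAGL1, MED6, WDR83OS and CALM3 (0.998). As FZD2 was at the floor on every IPEC-J2 array, its r holds no variation of FZD2 inside that line and rests largely on the gap to the floor.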

How the data were processed

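The 6 arrays hold RNA from 3 cultures per line. The deposited table holds 24123 probe sets with 1 log2 signal per array, which the authors made. The submitters' processing notes name PLIER and version 1.1.1 of GCOS. The methods name another GCOS version, and state that arrays were globally scaled, corrected for background and normalized before probe sets were summarised. The log base is not stated and was read as log2, because the floor of 4 is the log2 of 16. No further normalization was applied. The annotation gave 10069 probe sets 1 symbol, 198 several and 13732 none here, after 124 controls were left out.

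The 16322 probe sets above the floor on at least 1 array were fitted with limma 3.58.1 in R 4.3.3 (lmFit, eBayes, no block, Benjamini-Hochberg adjustment, threshold 0.05). The 7677 at the floor on every array cannot be called. Lines and replicate numbers came from the sample titles. Same-numbered arrays had correlations of their deviations from the line means of -0.229, -0.337 and 0.059, so the numbers were not taken as pairs. The arrays sharing a culture note had 0.284 and 0.481, and the remaining arrays 0.354. The fit with the notes as pairs took those remaining arrays as a pair as well, though they share no note. The fit was checked on simulated data without a floor, for the median size of planted differences only. That check does not cover false calls or signals at the floor.

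The genes and lists were chosen with earlier results of these data known. Named were all probe sets of CTNNB1, TCF7L1 and FZD2, the other Frizzled and TCF/LEF genes, from each list the largest differences among called genes (at most 4 in each direction), and for likeness the 5 genes with the highest r. PPP2R5A, PPP2R1A, PPP2R1B, LRP6, WLS, WNT10B, CTNNBIP1, HDAC1, CTBP2, MYC, CCND2, ASCL2, SOX9, ID2, CDH1, JUP and CTNND1 were added after their values were seen. No sequences or coordinates were used. The alternatives were another normalization, centring, offset, filter, moderation, gene mean, block or test, and leaving out each array.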

Additional observations from a re-analysis of the deposited data

How the results depend on the processing

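Of the listed Wnt probe sets, 4 were higher in IPEC-J2 in limma. That count was 8 after quantile normalization, 8 with arrays centred on the 75th percentile, 8 with 16 added before log2, 11 without probe sets with a mean under 5, 13 with trend and robust moderation, 9 with the note as a random block and 17 by the methods' t-test without adjustment. Leaving out an array gave 2 to 5. The count of 13 lower became 20 by the methods' t-test without adjustment, 5 with the notes as pairs, an alternative chosen after seeing the data, and 3 to 7 without 1 array, the lowest without IPEC-1 replicate 2, IPEC-1 replicate 3 or IPEC-J2 replicate 3. With the replicate number as a replicate block, 1 was higher and 1 lower. The 4 arrays with shared notes gave 0 calls in limma, with 4 higher and 9 lower at an unadjusted p under 0.05.

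Over all probe sets, 1435 were higher and 1660 lower. Gene means gave 662 and 762, the replicate block 465 and 493, the note pairs 864 and 776, the methods' t-test without adjustment 2387 and 2934, and the 4 arrays 0 and 0, against 1445 and 1877 unadjusted. Leaving out an array gave 722 to 1569 higher and 870 to 1300 lower, the lowest without IPEC-J2 replicate 3.

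CTNNB1 reversed from -0.86 to 0.32 with its brightest probe set and moved to -2.29 with the median over its probe sets on each array and to -0.39 with the median of their differences. Quantile normalization moved CTNNB1 probe set d from 0.27 to 0.20, and 16 added before log2 moved FZD2 from -3.35 to -2.49. The single probe sets of CTNNB1, TCF7L1 and FZD2 kept their direction in all alternatives run. For the 6 of them without overlap between the lines, leaving out arrays could not change it. As the genes were chosen for these differences on the same arrays, this is a description. Of 18 called probe sets in the lists, adherens junction included, 6 (BMP4, CSNK1A1, FZD4, PPP2R5E, PRKACB and VCL) passed whichever array was left out, and 9 passed with the notes as pairs. The cause of these changes was not tested. With 3 arrays per line and many signals at the floor, small differences could not be resolved.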

Other observations

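Few genes on the array had probe sets called in opposite directions. Among 974 genes with at least 2 probe sets above the floor on all arrays, 3 had called probe sets both higher and lower in IPEC-J2, namely EF1ALPHA, CALM3 (calmodulin) and POLR2B (a subunit of RNA polymerase II). CALM3 had 6 probe sets, of which 1 was higher and 4 were lower, with differences from -1.47 to 0.67. A span of over 2 between the probe sets was found in 6 genes, CTNNB1 included.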
